A study of Mus musculus with 4 samples.

Results

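Cells take up glucose through facilitative transporters of the SLC2 family, which let the sugar move down its concentration gradient, and hexokinases then add a phosphate that holds it inside the cell as glucose 6-phosphate. The transporters differ in tissue, affinity and place in the cell, and the hexokinases differ in tissue and in whether they dock on the outer membrane of mitochondria. The embryonic heart relies strongly on glucose breakdown, and Slc2a1, Slc2a3 and Hk2 are known targets of HIF-1, the transcription factor that responds to low oxygen.

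The transcripts described here are those of 6 glucose transporters (Slc2a1, Slc2a3, Slc2a4, Slc2a8, Slc2a10 and Slc2a12) and 4 hexokinases (Hk1, Hk2, Hk3 and Hkdc1), chosen by name as members of these gene families. Their 10 rows were found, by gene identifier, among the 38293 genes of the deposited table. RNA came from the ventricles of individual C57BL/6 mouse embryos of 1 litter at stage E12.5. The knockout group (cKO) had the genotype Hif1alphaflox/flox/Nkx2.5Cre/+, with both alleles of Hif1a, which encodes the oxygen-regulated subunit of HIF-1, flanked by recombination sites and Cre recombinase placed in the Nkx2-5 gene, which is active in heart muscle precursors. The control group was Hif1alphaflox/flox/Nkx2.5+/+, which has the floxed alleles but lacks Cre. Each group had 2 libraries, numbered 2 and 3. No embryo carried the Cre alone, so what the Cre or the altered Nkx2-5 gene does by itself cannot be told apart from Hif1a loss.

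The libraries held 8561687 to 19801300 expected counts, and cKO replicate 3 was the deepest. It was also the only male library by its Y-linked Ddx3y (102 CPM of the total, and at most 0.1 in the others) and its Xist (2.1 CPM, against at least 1770), so the groups differed in sex make-up; none of the 10 genes lies on chromosome X or Y, or on chromosome 17, which holds Nkx2-5. Hif1a stood at 716 and 663 CPM in cKO and at 530 and 552 CPM in control (log2 fold change 0.35 ± 0.09 SE, edgeR adjusted p = 0.317), and DESeq2 called it higher in cKO (adjusted p = 0.0286). Reads from all exons are summed in this value, which therefore cannot check the deletion. Nkx2-5, which carries the Cre, had 44.3 and 42.1 CPM in cKO and 55.9 and 64.95 CPM in control (edgeR adjusted p = 0.153). The labelled tissue was checked with 10 heart muscle markers, which summed to 43749 and 40206 CPM in cKO and 44278 and 42242 CPM in control, with none at 0. Except for Xist and Ddx3y, which were scaled by the unadjusted library total, CPM is the depth-scaled count, with library sizes adjusted by TMM, throughout.

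In the cKO ventricles 3 of the 10 transcripts fell and 0 rose in edgeR's quasi-likelihood test. The 3 were the transporters Slc2a1 and Slc2a3 and the hexokinase Hk2. All 10 genes passed the filter on low counts. Over all 13711 genes tested, 0.365% were called lower in cKO and 0.146% higher (Benjamini-Hochberg adjusted p under 0.05), or 50 and 20 genes. Without control replicate 3 these were 24 lower and 15 higher, and without cKO replicate 2 they were 69 lower and 72 higher. Of the 10, none was higher at an unadjusted p under 0.05, or in DESeq2 or limma-voom. For Slc2a1, Slc2a3 and Hk2 both cKO libraries lay below both controls, as they did for 18.8% of all genes tested. Slc2a4 was the 1 member with both cKO libraries above both controls, against 19.4% of all genes, and the other 6 overlapped. The median log2 fold change was -0.11 over the 10 genes and -0.00031 over all genes tested. In bulk RNA, fewer cells of a type and less RNA per cell cannot be told apart.

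**Figure D1:**
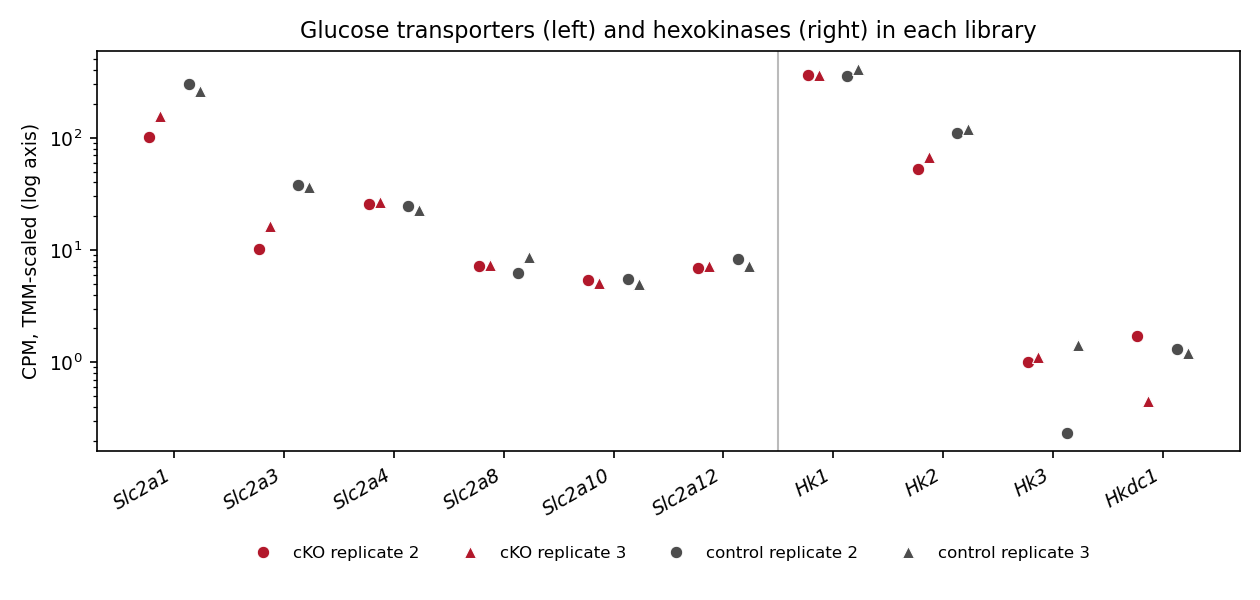
Level of each glucose transporter and hexokinase transcript in CPM on a log axis, 1 point per library, with cKO in red and control in grey, and circles for replicate 2 and triangles for replicate 3. The cKO points of Slc2a1 (102 and 156 CPM), Slc2a3 (10.2 and 16.3) and Hk2 (52.7 and 67.9) lie below their control points, while those of Hk1 (363 and 359) lie among or near them.

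Slc2a1 encodes GLUT1, the transporter of basal glucose uptake in many embryonic tissues (ENSMUSG00000028645, GRCm38 chromosome 4, 119108711 to 119137983, plus strand). It had 102 CPM in cKO replicate 2 and 156 CPM in cKO replicate 3, against 301 and 259 CPM in control replicates 2 and 3. The lower control stood well above the higher cKO library. The cKO libraries themselves differed 1.53-fold and the controls 1.16-fold. Its log2 fold change was -1.11 ± 0.18 (SE), a 2.16-fold lower level in cKO, with adjusted p = 0.0468 in edgeR's quasi-likelihood test. The call lies close to the threshold: DESeq2 gave adjusted p = 0.0561, and over all 11 alternatives, of which 6 kept the call, adjusted p ran from 0.00173 to 0.169.

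Slc2a3 encodes GLUT3, a high-affinity transporter best known from neurons (ENSMUSG00000003153, chromosome 6, 122727809 to 122801640, minus strand). In cKO it had 10.2 and 16.3 CPM, and in control 37.6 and 36.5 CPM. The controls were close together, and the cKO libraries differed 1.59-fold. The log2 fold change was -1.44 ± 0.18 (SE; edgeR adjusted p = 0.0168), a 2.71-fold lower level in cKO and the largest fitted fold of the 3 called members.

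Hk2, hexokinase II, is the form that comes to prevail in adult heart and skeletal muscle and docks on mitochondria (ENSMUSG00000000628, chromosome 6, 82725025 to 82774454, minus strand). It measured 52.7 and 67.9 CPM in cKO, against 111 and 119 CPM in control. Again both cKO libraries were below both controls, with a gap wider than the spread within either group. The log2 fold change was -0.93 ± 0.12 (SE), a 1.90-fold lower level in cKO, with edgeR's adjusted p = 0.0193. None of the 3 calls held without control replicate 2 or without control replicate 3: adjusted p was 0.169 and 0.157 for Slc2a1, 0.0925 and 0.122 for Slc2a3, and 0.0710 and 0.149 for Hk2. All 3 kept their direction there, and all were called without cKO replicate 2 and without cKO replicate 3.

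In all 3 genes cKO replicate 2 was lower than cKO replicate 3. Against the control mean, Slc2a1 had a log2 ratio of -1.45 in cKO replicate 2 and -0.84 in cKO replicate 3, Slc2a3 -1.86 and -1.19, and Hk2 -1.13 and -0.76. The erythroid markers also split these libraries. Their 6 measured genes summed to 2224 CPM in cKO replicate 2 and 5322 CPM in cKO replicate 3, against 4237 and 4893 CPM in control, with none at 0, and 0 passed edgeR or DESeq2, or an unadjusted p under 0.05. All 6 erythroid markers had negative log2 fold changes, with a median of -0.38. The 4 cushion mesenchyme markers summed to 102 CPM in cKO replicate 2 and 267 CPM in cKO replicate 3, against 204 and 220 CPM in control. They did not move together: 1 of the 4 had a negative log2 fold change, and their median was 0.32. All 7 endothelial and endocardial markers had negative log2 fold changes, 4 of them with an unadjusted p under 0.05 and 0 called by edgeR or DESeq2, and summed to 1143 and 1037 CPM in cKO against 1234 and 1282 CPM in control. Over all genes tested, 50.1% had a negative log2 fold change and 6.97% an unadjusted p under 0.05. The cKO libraries also differed in sex and in depth, as given above. The part of these cells, of sex or of depth in the results or in the spread between the cKO libraries was not tested.

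The other 4 transporters did not pass the test. Slc2a4 encodes GLUT4, which insulin brings to the surface of muscle and fat cells (ENSMUSG00000018566, chromosome 11, 69942539 to 69948188, minus strand). It had 25.7 and 26.5 CPM in cKO, against 24.6 and 22.7 CPM in control. The groups did not overlap, but the difference was small: the log2 fold change of 0.15 has a 95% interval from -0.098 to 0.39, and edgeR's adjusted p was 0.820.

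Slc2a8 encodes GLUT8, found mainly on membranes inside the cell (chromosome 2, 32972990 to 32982083, minus strand). It stood at 7.18 and 7.28 CPM in cKO and at 6.27 and 8.71 CPM in control, so the cKO values fell between the controls. Slc2a10 encodes GLUT10, whose loss in humans causes arterial tortuosity syndrome (chromosome 2, 165503787 to 165519917, plus strand). Its level was 5.36 and 5.12 CPM in cKO and 5.56 and 4.96 CPM in control. Slc2a12 encodes GLUT12 (chromosome 10, 22645011 to 22704285, plus strand) and had 6.88 and 7.23 CPM in cKO and 8.27 and 7.17 CPM in control. These 3 rested on 45 to 145 expected counts per library. Their 95% intervals on the log2 scale were -0.57 to 0.47, -0.56 to 0.55 and -0.59 to 0.34. A change of the size seen in Slc2a1 lies outside each, while one within these bounds, in either direction, is not excluded. Slc2a12 shares up to 407 bases of exon with Tbpl1 on the opposite strand, whose reads an unstranded kit does not separate. Tbpl1 had more counts than Slc2a12 in every library, with 458 and 1004 in cKO and 396 and 398 in control.

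Hk1, hexokinase I, is the widely expressed form that docks on mitochondria through the VDAC channels (ENSMUSG00000037012, chromosome 10, 62268855 to 62379908, minus strand). It had 363 and 359 CPM in cKO, against 357 and 411 CPM in control. The cKO values were nearly equal and lay between the controls. Its log2 fold change of -0.088 ± 0.093 (SE) had a 95% interval from -0.30 to 0.13 (edgeR adjusted p = 0.883), an interval that does not reach the fitted change of Hk2. Antisense transcripts overlap Slc2a1 (Gm12868) and Hk1 (Hk1os), but these had at most 7 expected counts in any library.

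Hk3, a hexokinase known from myeloid blood cells (chromosome 13, 55005985 to 55021385, minus strand), was near the limit of detection, with 10 and 22 counts in cKO and 2 and 13 counts in control. The exact 95% Poisson interval of the 2 counts in control replicate 2 is 0.242 to 7.23 and covers counting error only. Hk3 also shares up to 34 bases of exon with Unc5a on the opposite strand, which had 10 and 34 counts in cKO and 29 and 38 counts in control. The 7 macrophage and myeloid markers summed to 30.7 and 35.1 CPM in cKO and 27.5 and 68.6 CPM in control. Hk3 itself stood at 1.012 and 1.105 CPM in cKO and at 0.2364 and 1.433 CPM in control. The part of myeloid cells in the Hk3 values was not tested. Hkdc1, which encodes a hexokinase-like protein (chromosome 10, 62383137 to 62422491, minus strand), had 17 and 9 counts in cKO and 11 in each control. At 1.72 and 0.452 CPM, the cKO libraries lay on either side of the controls. Neither gene passed edgeR's test (adjusted p = 0.944 for Hk3 and 0.928 for Hkdc1). With 95% intervals from -1.19 to 1.84 and from -1.86 to 1.10 on the log2 scale, a 2-fold change in either direction was not excluded.

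**Figure D2:**
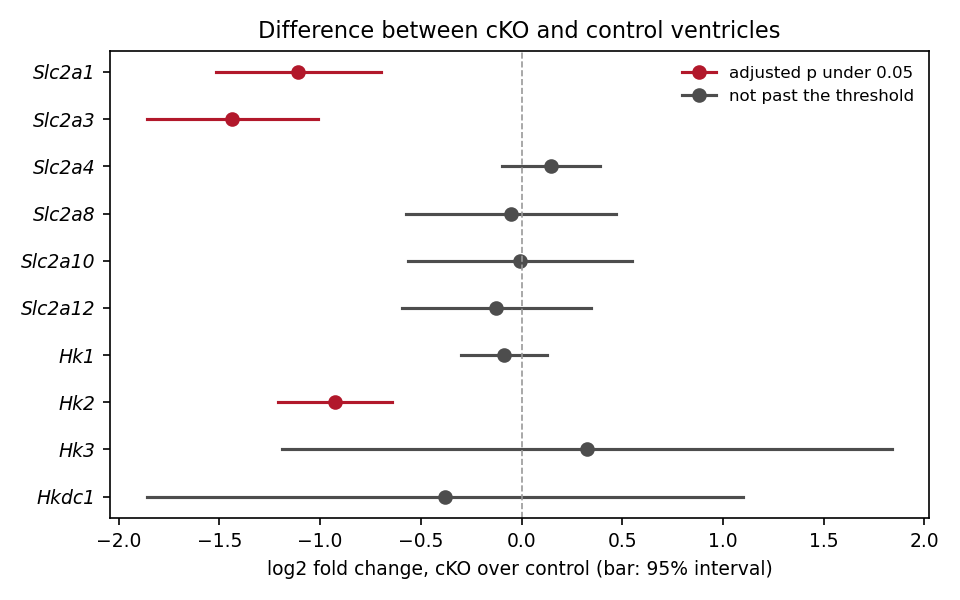
Log2 fold change of each gene, cKO over control, with its 95% interval from edgeR's quasi-likelihood fit, in red where the adjusted p was under 0.05. Slc2a1 (-1.11), Slc2a3 (-1.44) and Hk2 (-0.93) lie to the left of 0, and the intervals of the other 7 genes include 0.

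To compare genes with one another, CPM was divided by the length of each gene's exons in kilobases. Among transporters Slc2a1 had the highest level in every library, 36.9 ± 10.9 CPM per kb in cKO and 79.9 ± 8.35 in control (SD, n = 2 each). In cKO the order continued with Slc2a4 (7.51), Slc2a8 (2.25), Slc2a3 (1.83), Slc2a12 (1.67) and Slc2a10 (1.47 CPM per kb). In control it was Slc2a4 (6.80), Slc2a3 (5.11), Slc2a8 (2.33), Slc2a12 (1.82) and Slc2a10 (1.47 CPM per kb). Slc2a3 therefore ranked above Slc2a8 in control, where their libraries did not overlap, and overlapped Slc2a8, Slc2a12 and Slc2a10 in cKO. Slc2a8 and Slc2a12 also overlapped in control. Summed over the 6 transporters, the level was 43.4 and 59.9 CPM per kb in cKO and 104 and 91.4 CPM per kb in control, so the cKO mean was 0.530 of the control mean.

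The make-up of the transporter pool differed between the groups. Slc2a1 made up 67.3% and 74.5% of it in cKO, against 82.9% and 81.0% in control. Slc2a4 made up 17.0% and 12.7% in cKO, against 6.83% and 7.15% in control, although its own level differed little. The share of Slc2a3 was 3.25% and 3.75% in cKO and 5.01% and 5.51% in control. Slc2a8, Slc2a10 and Slc2a12 had higher mean shares in cKO (4.48%, 2.93% and 3.30%) than in control (2.43%, 1.51% and 1.87%), by 2.05, 1.42 and 1.43 percentage points. For each of the 6 genes both cKO shares lay on the same side of both control shares. The shares in a library sum to a fixed total, so these 6 differences are not independent. The levels of Slc2a8, Slc2a10 and Slc2a12 themselves overlapped between the groups. With 2 libraries per group the exact two-sided permutation test cannot go below p = 0.333, and each of the 6 differences gave that value, so the shares are descriptions with their spread.

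Among hexokinases Hk1 prevailed in every library, and more so in cKO. It made up 81.8% and 78.2% of the pool in cKO, against 68.8% and 70.0% in control. Hk2 made up 17.0% and 21.1% in cKO, against 30.6% and 29.1% in control. Hk3 made up 0.529% and 0.557% in cKO and 0.106% and 0.566% in control, and Hkdc1 0.645% and 0.164% in cKO and 0.417% and 0.344% in control. The summed level of the 4 was 51.9 and 53.9 CPM per kb in cKO and 60.8 and 68.8 CPM per kb in control, the cKO mean being 0.817 of the control mean. Within a library, which removes any effect of scaling, the ratio of Hk2 to Hk1 was 0.208 and 0.270 in cKO and 0.445 and 0.416 in control, both cKO values below both controls (exact permutation p = 0.333, the smallest possible).

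The shares depend on which length stands for a gene. With the longest coding transcript in place of all exons, Slc2a1 made up a mean of 65.6% in cKO and 77.0% in control, and Hk1 87.9% in cKO and 80.6% in control. On that scale Slc2a3 and Slc2a4 had equal mean shares in control (8.41%), and in cKO 5.51% and 17.6%. With the mean length of the coding transcripts, the mean shares of Slc2a10 and Slc2a12 differed by 0.54 and 0.55 percentage points. Every other Slc2a gene in the table was then added, of which Slc2a13 was the most abundant at 87 to 205 counts. The difference in Slc2a1's mean share, cKO minus control, was then -11.6 percentage points, against -11.0 for the 6 transporters alone.

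**Figure D3:**
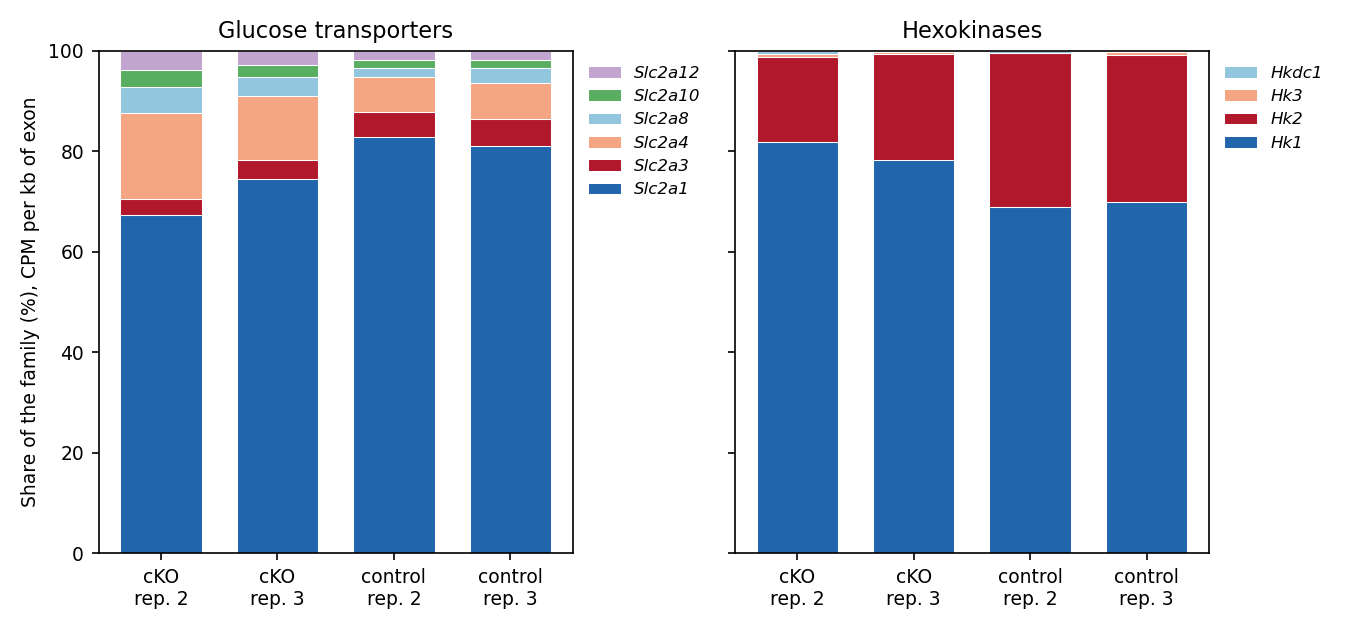
Share of each gene in the summed level of the 6 transporters (left) and the 4 hexokinases (right), in percent of CPM per kb of exon, 1 bar per library. Slc2a1 takes 67.3% and 74.5% of the transporter bar in cKO and 82.9% and 81.0% in control, and Hk2 takes 17.0% and 21.1% of the hexokinase bar in cKO and 30.6% and 29.1% in control.

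Promoter windows are shown for the pair of called genes that have one and for Hk1, which was not called, so that the short core of the hypoxia response element, the DNA word HIF-1 binds, can be seen in genes with unlike results. The windows come from RefSeq (GRCm38.p6) and run 5′ to 3′ from 250 bases before to 50 bases after the annotated start. Capitals mark ACGTG or GCGTG on either strand, so CACGT and CACGC are capitals too, and matches may overlap. Slc2a1 is at chr4:119108495-119108794 (plus strand), Hk2 at chr6:82774405-82774704 (minus strand) and the second of Hk1's 2 windows at chr10:62340372-62340671 (minus strand).
Slc2a1: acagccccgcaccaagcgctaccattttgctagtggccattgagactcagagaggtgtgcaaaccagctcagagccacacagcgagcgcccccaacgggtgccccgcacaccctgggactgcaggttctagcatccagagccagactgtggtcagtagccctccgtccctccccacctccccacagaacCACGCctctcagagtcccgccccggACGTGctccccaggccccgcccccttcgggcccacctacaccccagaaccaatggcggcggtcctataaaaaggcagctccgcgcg
Hk2: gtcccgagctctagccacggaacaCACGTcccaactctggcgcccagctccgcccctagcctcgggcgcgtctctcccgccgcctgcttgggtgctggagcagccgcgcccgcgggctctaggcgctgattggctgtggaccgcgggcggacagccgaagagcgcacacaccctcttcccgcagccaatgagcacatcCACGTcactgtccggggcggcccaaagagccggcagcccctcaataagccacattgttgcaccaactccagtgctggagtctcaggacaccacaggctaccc
Hk1: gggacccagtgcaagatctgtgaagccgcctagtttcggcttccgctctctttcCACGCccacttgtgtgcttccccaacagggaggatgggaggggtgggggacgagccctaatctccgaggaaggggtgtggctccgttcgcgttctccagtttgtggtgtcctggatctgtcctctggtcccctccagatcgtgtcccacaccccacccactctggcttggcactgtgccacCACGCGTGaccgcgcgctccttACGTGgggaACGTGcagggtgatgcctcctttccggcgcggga

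Slc2a1 held 1 match of each form, at positions -61 and -36 from the start, and Hk2 held 2 of ACGTG on the minus strand of the window, at -226 and -52. At least 1 match of either form stands in 43.8% of the 32841 windows in the RefSeq table, and at least 2 in 20.7%. The Hk1 window shown held 5, a number reached by 1.66% of windows, and Hk1's transcript was not called. Its other window and that of Slc2a12 held none. Slc2a8, Slc2a10, Hk3 and Hkdc1 held 1 each. The longer word CACGTG, present in 7.15% of all windows, was in none of the 9 windows of these genes. Slc2a3 and Slc2a4 had no window in the table. A match is a string of letters and not a bound site.

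Other genes of glucose handling were read in the same fit, in lists chosen with earlier results of these data known. Of 4 measured further sugar transporters 0 passed edgeR's test (median log2 fold change -0.066, where all genes have -0.00031). Slc2a5, the fructose transporter GLUT5, had the smallest p, at 0.506 and 0.552 CPM in cKO and 1.77 and 1.32 CPM in control (log2 fold change -1.51 ± 0.46, adjusted p = 0.515). Nor did any of 3 measured enzymes and carriers of glucose and glucose 6-phosphate pass. Slc37a4, which carries glucose 6-phosphate into the endoplasmic reticulum, had a log2 fold change of -0.48 ± 0.14 (edgeR adjusted p = 0.466).

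The genes that set the amount or place of the transporters gave 0 calls among 18, with a median of -0.0019. Arrdc4, an arrestin-like protein that restrains glucose uptake, had the smallest p of them, at 54.5 and 43.8 CPM in cKO and 39.1 and 34.1 CPM in control. At 0.42 ± 0.13 on the log2 scale it missed the threshold (edgeR adjusted p = 0.527). The 3 VDAC genes, whose channels hold Hk1 and Hk2 at the mitochondrion, had a median log2 fold change of 0.036 with no call by edgeR. Vdac3, with the smallest p, had 0.14 ± 0.089 (SE). At an unadjusted p under 0.05 these lists held 1 further sugar transporter, 1 glucose 6-phosphate gene, 2 regulators and 0 VDAC genes, where 6.97% of all genes tested passed that p, and DESeq2 and limma-voom called 0 in each.

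Of 17 measured genes of later glycolysis and lactate export 11 fell, none rose and 6 did not pass. Over all genes tested 0.365% were called lower in cKO and 0.146% higher. The median log2 fold change was -0.79 in this list and -0.00031 over all genes tested. Pfkl, a phosphofructokinase, had 81.5 and 77.0 CPM in cKO and 245 and 244 CPM in control, a 3.09-fold lower level (edgeR adjusted p = 6.39e-05). The lactate exporter Slc16a3 was 3.95-fold lower, the lactate-forming Ldha 2.99-fold lower and Pgk1, phosphoglycerate kinase, 2.24-fold lower (edgeR adjusted p = 0.000635, 0.000161 and 0.00128). By fitted fold the 11 were 1.51-fold to 3.95-fold lower in cKO, a range that holds the values of Slc2a1 (2.16), Slc2a3 (2.71) and Hk2 (1.90).

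**Figure D4:**
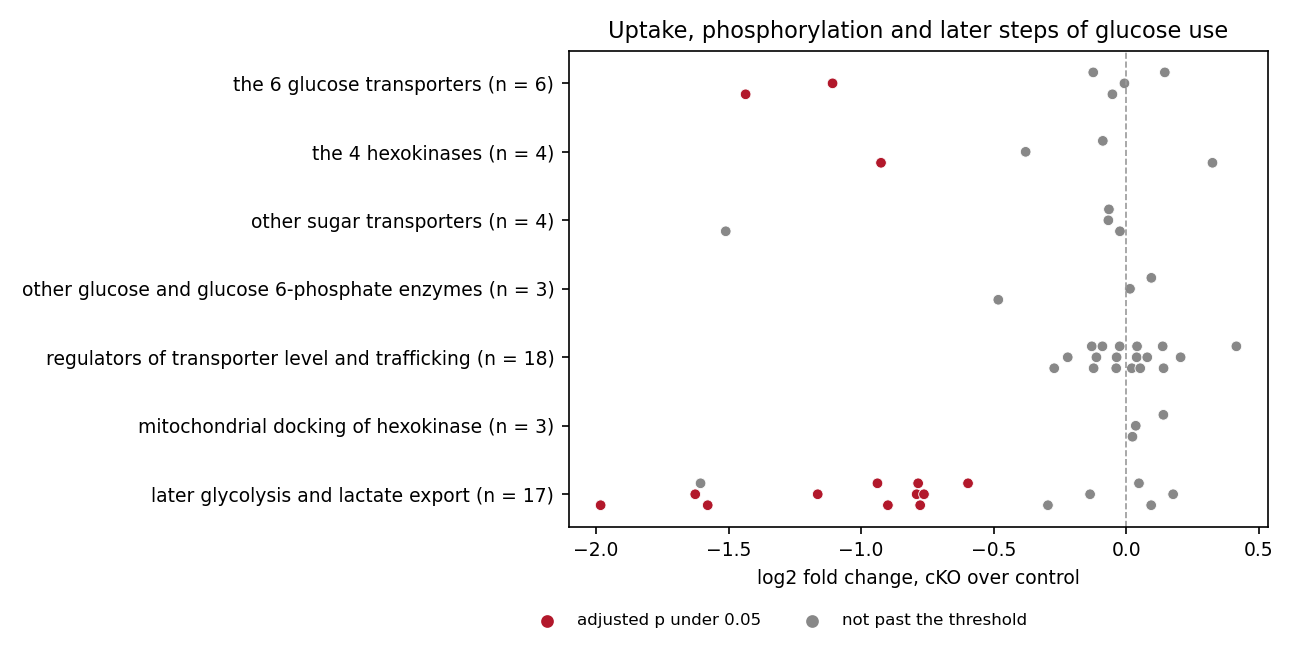
Log2 fold change, cKO over control, of each measured gene in the 2 families and in 5 further lists of glucose handling, in red where edgeR's adjusted p was under 0.05. Called genes stand in 3 rows, with 2 transporters, 1 hexokinase and 11 genes of later glycolysis and lactate export, all to the left of 0, and the 18 regulators of the transporters lie around 0.

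The genes closest in pattern to Slc2a3 and Hk2, the transporter and the hexokinase with the smallest p, were found by Euclidean distance between log2 CPM values centred on the mean of the 4 libraries. For Slc2a3 these were Gabra4 (distance 0.24), Unc5a (0.246) and 1700001L05Rik (0.29). Gabra4, a subunit of the receptor for the transmitter GABA, had 2.53 and 5.12 CPM in cKO and 10.6 and 9.59 CPM in control. For Hk2 they were Gfi1b (0.0589), Pcdh17 (0.0819) and a gene without a symbol. Pcdh17, a cell adhesion protein, had 2.83 and 3.47 CPM in cKO and 6.03 and 6.18 CPM in control. None of the 6 was above 10.6 CPM in any library, and over 4 libraries a small distance describes these values only.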

How the data were processed

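Polyadenylated RNA was measured in 4 libraries, made per the labels' protocols from 500 ng of total RNA with the TruSeq RNA v2 kit, which does not mark strand, and read as single reads of 75 bases. The deposited table holds the authors' expected counts per gene, estimates that share ambiguous reads among genes; the submitters' processing notes name RSEM 1.2.3, cutadapt 1.3 and CASAVA 1.8.2, with the build GRCm38. Their annotation is not given in the sources used here. Symbols, positions and exon lengths came from GENCODE release 21 for mouse (GRCm38).

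Expected counts were rounded. Genes were kept by edgeR's filter at its defaults (minimum count 10, minimum total 15), scaled by TMM, and tested with edgeR 4.0.16 (glmQLFit and glmQLFTest, R 4.3.3) on 2 residual degrees of freedom, with Benjamini-Hochberg adjustment over all 13711 genes and a threshold of 0.05. SE is the size of the log2 fold change over the root of its F statistic. Members and lists were chosen with earlier results of these data known. The text names all members, Hif1a, Nkx2-5, up to 4 called genes per list or the 1 with the smallest p, and 3 genes nearest in pattern. Neither edgeR nor DESeq2 called a gene of any cell type marker list. No member has a near-identical copy (95% identity over 300 bases, BLAST 2.17.0). The steps were tested on simulated data. Alternatives were DESeq2 1.42.0 (size factors, and its test), upper-quartile scaling, 2 other filters, limma-voom (limma 3.58.1), a replicate block, each library left out, other gene lengths and wider families. No label says whether replicates differ beyond being separate embryos of 1 litter. By Xist, Ddx3y and total counts, the cKO replicates differed in sex and in depth. The spread between replicates exceeded counting noise (a chi-square of 12.2 per degree of freedom in cKO and 5.54 in control).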

Additional observations from a re-analysis of the deposited data

How the results depend on the processing

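The number of genes called was 70 and ran from 39 to 141 with 1 library left out, the lowest without control replicate 3 and the highest without cKO replicate 2. The number of members called was 3, and 0 to 3 with 1 library left out. A library left alone in its group is assumed to vary like the other groups. Slc2a1 also lost its call without a filter (adjusted p = 0.0731), with a mean of at least 5 CPM (0.0654) and under DESeq2 (0.0561), with log2 fold changes of -1.10, -1.11 and -1.12. With 1 library left out the log2 fold change ran from -1.45 to -0.84 for Slc2a1, -1.86 to -1.19 for Slc2a3 and -1.13 to -0.76 for Hk2. Of the 7 members not called, Slc2a4 (0.089 to 0.20) and Slc2a12 (-0.23 to -0.020) kept their sign there and 5 did not: Slc2a8 ran from -0.27 to 0.21, Slc2a10 from -0.086 to 0.076, Hk1 from -0.19 to 0.017, Hk3 from -0.42 to 2.13 and Hkdc1 from -1.45 to 0.45. Slc2a10 was also at 0.014 with upper-quartile scaling and at 0.00031 with no filter. The difference in Hk1's share, 10.6 percentage points, was 7.33 with the longest coding transcript and 4.66 with the mean coding transcript as length. The replicate block gave 75 calls and the same 3 members among them (adjusted p = 0.0275 for Slc2a1, 0.00695 for Slc2a3 and 0.00344 for Hk2). No label links equal numbers, and their libraries' deviations had a correlation of 0.0894 over genes. Summing near-identical copies could not be run, since no member has one. The cause was not tested for any of these shifts.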
